A study of Mus musculus with 18 samples.

Results

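The genes described here are 10 components of protein folding in the endoplasmic reticulum (ER) and of the unfolded protein response, the programme that adjusts this machinery. They were taken by name (Hspa5, Hsp90b1, Calr, Canx, Pdia3, Pdia4, Pdia6, Dnajb9, Xbp1 and Edem1), not by a threshold on measured values, although earlier results of these data were known when they were chosen. Of the 22180 genes that had a probe set of their own, 9 were among these 10. The probe set of Pdia4 is annotated to a microRNA gene as well, so Pdia4 was not analysed here. Edem1 had 2 probe sets, and the one with the higher mean was used. The other lay between 0.25 and 0.87 on every array, at the level of background.

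The cells were NaF, a mouse mammary carcinoma line, measured on 18 Affymetrix arrays in 6 groups of 3. Retinoic acid (the natural ligand of retinoic acid receptors), TTNPB (a synthetic agonist of the same receptors) and GW1516 (a synthetic PPARδ agonist) were each given at 1 µM for 6 hours to cells kept for 48 hours in DMEM with 10% charcoal-treated serum, and the charcoal control stayed in that medium without ligand. Palmitate, a saturated fatty acid, was given at 10 µM for 6 hours to cells in DMEM with 10% untreated serum (full medium), and the full-medium control had no palmitate. The labels state no vehicle for either control and do not say whether replicates were separate cultures, so a p-value here speaks only of the spread from array to array, which may be technical.

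Values are the authors' log2 expression values. Array medians lay between 1.06 and 1.32 in the 12 charcoal-serum arrays and between 0.47 and 0.55 in the 6 full-medium arrays, so levels were compared only within a serum. GW1516 replicate 3 stood apart: the mean distance of its genes from the GW1516 group mean was 0.29, where no other array had more than 0.192 in its own group. Background, taken as the 95th percentile of olfactory and vomeronasal receptor genes, was 1.15 to 1.31 in the charcoal-serum groups and 0.59 to 0.63 in the full-medium groups. All 9 genes were above it in every group. Of 6 epithelial markers 5 or 6 were above background in each group, Krt8, Krt18 and Cdh1 in all of them. In charcoal serum the means of Krt8, Epcam, Krt19 and Cldn4 lay at 1.15 to 1.85, close to background. The mesenchymal marker Vim was above background in every group, but Fn1 and Cdh2 in none. Col1a1 was above it only in the full-medium control, and Pdgfrb only in charcoal serum. The endothelial cadherin gene Cdh5 was above background in every group, while Pecam1 and Kdr, which also mark endothelium, were not. Of the immune markers, Cd68 was above background in every group, Ptprc only in charcoal serum, and Adgre1 and Cd3e in none. Of the basal or myoepithelial markers, Trp63 was above it only in charcoal serum, Acta2 only with retinoic acid and Krt14 in no group. Of the adipocyte markers, Plin1 was above it with the 3 ligands and in the full-medium control, and Adipoq and Lep in no group. Of 24 measured markers of 6 cell types none was called (adjusted p below 0.05) in any of the 4 treatment comparisons, and 3, 2, 3 and 0 of them had an unadjusted p below 0.05 in limma with retinoic acid, TTNPB, GW1516 and palmitate.

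Proteins that enter the ER are folded by Hspa5 (BiP, an Hsp70 chaperone) and Hsp90b1 (GRP94, an Hsp90 chaperone). Glycoproteins cycle through the lectin chaperones Calr and Canx, and disulfide bonds are formed and rearranged by the Pdia enzymes. When unfolded proteins accumulate, the sensors Ern1 (IRE1), Atf6 and Eif2ak3 (PERK) are activated. Ern1 splices the mRNA of Xbp1 into the form that encodes an active transcription factor, and Xbp1 and Atf6 raise the chaperone genes through short promoter elements, of which the ER stress response element (ERSE) is the best known. Hspa5 is the most widely used transcript marker of this response.

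The ERSE was looked for in the RefSeq promoters of the GRCm38.p6 assembly, because it is the sequence through which these genes are classically induced together. The letters searched were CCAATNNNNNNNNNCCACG, on both strands, in the 250 bases before the gene start. They were found in 37 of 32851 promoters (0.113%) and in 5 of the 10 genes: Hsp90b1, which held 2 matches, and Hspa5, Calr, Canx and Pdia6, with 1 each. Since the element is already known from such genes, these shares are a description and not a test. Only exact letters were counted, so elements that depart from them were missed, and the counts do not rank the promoters. The matches are given on the strand that reads CCAAT first, with the fixed letters in capitals and their position after each name.
Hsp90b1 far match (chr10:86705638-86705656): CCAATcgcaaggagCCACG
Hsp90b1 near match (chr10:86705533-86705551): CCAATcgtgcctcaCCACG
Hspa5 (chr2:34772025-34772043): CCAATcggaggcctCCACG
Calr (chr8:84847075-84847093): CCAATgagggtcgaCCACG
Canx (chr11:50325800-50325818): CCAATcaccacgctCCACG
Pdia6 (chr12:17266491-17266509): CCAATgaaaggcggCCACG

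Measured on the strand of the gene, the Hspa5 match begins 65 bases before the start and those of Hsp90b1 begin 212 and 107 bases before it. The near match of Hsp90b1 and the match of Calr (162 bases before the start) lie on the opposite strand. Those of Canx and Pdia6 begin 145 and 98 bases before the start, on the strand of the gene. Pdia3, Pdia4, Dnajb9, Xbp1 and Edem1 do not have these letters in this window. No member's window had the ERSE-II letters, ATTGG and CCACG with 1 base between them (in 0.0304% of promoters; the CCACG is shared with the ERSE), or the XBP1 element TGACGTGG (in 0.563%). These elements too were searched as exact letters, so variants of them were missed. The Hspa5 window printed below holds TGACGTGA, which departs from the searched XBP1 letters in its last base. A match is a description of the letters and not a shown binding site. The windows of Hsp90b1 and Hspa5 are printed in full, 5′ to 3′ on the strand of the gene with the matched letters in capitals, since these genes gave contrasting results, and the second match of Hsp90b1 reads as its complement, CGTGG before ATTGG.
Hsp90b1 (minus strand, chr10:86705445-86705694): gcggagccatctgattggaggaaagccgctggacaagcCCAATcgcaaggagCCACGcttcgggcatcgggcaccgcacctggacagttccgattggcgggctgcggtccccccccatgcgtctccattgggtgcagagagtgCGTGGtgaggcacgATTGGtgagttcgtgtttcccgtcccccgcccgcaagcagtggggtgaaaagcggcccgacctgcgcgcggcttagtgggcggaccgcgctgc
Hspa5 (plus strand, chr2:34771840-34772089): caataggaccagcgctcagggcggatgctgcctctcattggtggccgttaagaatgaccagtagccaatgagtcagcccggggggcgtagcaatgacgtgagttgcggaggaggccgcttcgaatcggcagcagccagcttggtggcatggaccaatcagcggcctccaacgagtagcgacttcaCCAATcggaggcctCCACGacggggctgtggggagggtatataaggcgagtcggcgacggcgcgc

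**Figure D1:**
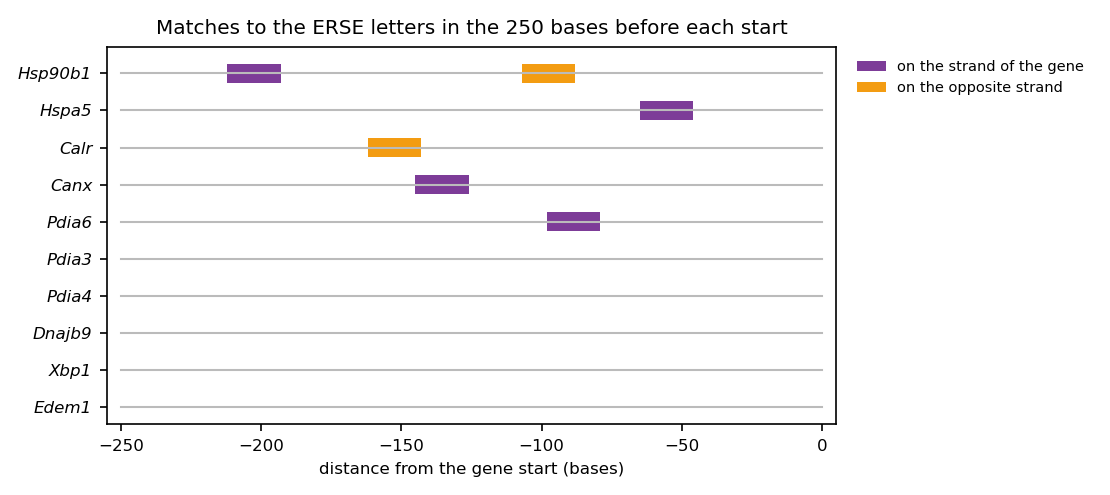
Position of matches to the ERSE letters in the 250 bases before the start of each of the 10 genes (x axis, bases from the start; 1 row per gene; colour gives the strand). Hsp90b1 has 2 matches, 4 other genes have 1 and the remaining 5 have none.

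Among the 9 measured genes, Hsp90b1 was higher than in the matching control with every treatment, and it was the only one past the test in any of the 4 treatment comparisons. Hspa5, which holds the same promoter letters, had differences of the opposite sign in all 4, none past the test. Tests are limma's, fitted to all 18 arrays, 2-sided, with Benjamini-Hochberg adjustment over the 22180 genes and a threshold of 0.05. The 3 ligand comparisons share their control arrays, so a control value that is low by chance would raise all of them.

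Hsp90b1 (probe set 17243738, Entrez 22027, chromosome 10 from 86690841 to 86705444) was 8.94, 8.96 and 9.0 on the retinoic acid arrays, 8.87, 8.90 and 8.84 with TTNPB and 9.01, 8.93 and 8.92 with GW1516, against 8.34, 8.34 and 8.41 in charcoal controls. All 9 ligand arrays were above all 3 controls. It rose 1.52-fold with retinoic acid (log2 difference 0.60 ± 0.07 SE, adjusted p = 7.17e-05, limma). With GW1516 it rose 1.5-fold (0.59 ± 0.07, adjusted p = 0.000514, limma), and with TTNPB 1.42-fold (0.50 ± 0.07, adjusted p = 0.00144, limma). The group means ran from 8.97 ± 0.03 with retinoic acid through 8.95 ± 0.05 with GW1516 to 8.87 ± 0.03 with TTNPB (SD, n = 3), and 8.37 ± 0.04 in the control. Neighbouring ligands in this order did not differ by the test.

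In full medium, Hsp90b1 was 6.32, 6.27 and 6.33 with palmitate, against 5.82, 5.98 and 6.06 in controls, again without overlap. It rose 1.28-fold with palmitate (log2 difference 0.35 ± 0.07 SE, adjusted p = 0.0269, limma). This call was less secure than those of the ligands. It was lost when full-medium control replicate 1 or 2 (adjusted p = 0.12 and 0.0776) or palmitate replicate 1, 2 or 3 (0.0818, 0.0555 and 0.0917) was left out, while the difference stayed between 0.29 and 0.41 under every setting tried. On the 6 full-medium arrays alone it had adjusted p = 0.277 at the same difference. The ligand calls held under every setting except that for GW1516 in a fit of its 6 arrays alone (0.177).

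Hspa5 (probe set 17370103, Entrez 14828, chromosome 2 from 34772090 to 34776529) was 5.75, 5.58 and 5.78 with retinoic acid, 5.67, 5.51 and 5.68 with TTNPB and 5.61, 5.68 and 6.07 with GW1516, against 6.05, 5.83 and 6.03 in charcoal controls. The retinoic acid and TTNPB arrays lay below all controls, while GW1516 replicate 3 lay above them. Its log2 differences were -0.27 (95% interval -0.55 to 0.01, adjusted p = 0.337) for retinoic acid, -0.35 (-0.63 to -0.07, adjusted p = 0.277) for TTNPB and -0.19 (-0.47 to 0.09, adjusted p = 0.543) for GW1516. Without GW1516 replicate 3 the last was -0.33 (adjusted p = 0.165). With palmitate Hspa5 was 4.48, 4.76 and 4.44, against 4.54, 4.60 and 4.82 in full-medium controls, a difference of -0.09 (-0.38 to 0.19, adjusted p = 1). The upper bounds of these intervals, 0.01, -0.07, 0.09 and 0.19, are all below the lower bounds for Hsp90b1 in the same comparisons, 0.45, 0.35, 0.43 and 0.20. The genes were set side by side after their values were seen, so the bounds describe the contrast and do not test it. Each gene was read by its own probe set, and probe sets can differ in how far they follow a change. For palmitate the bounds nearly meet.

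**Figure D2:**
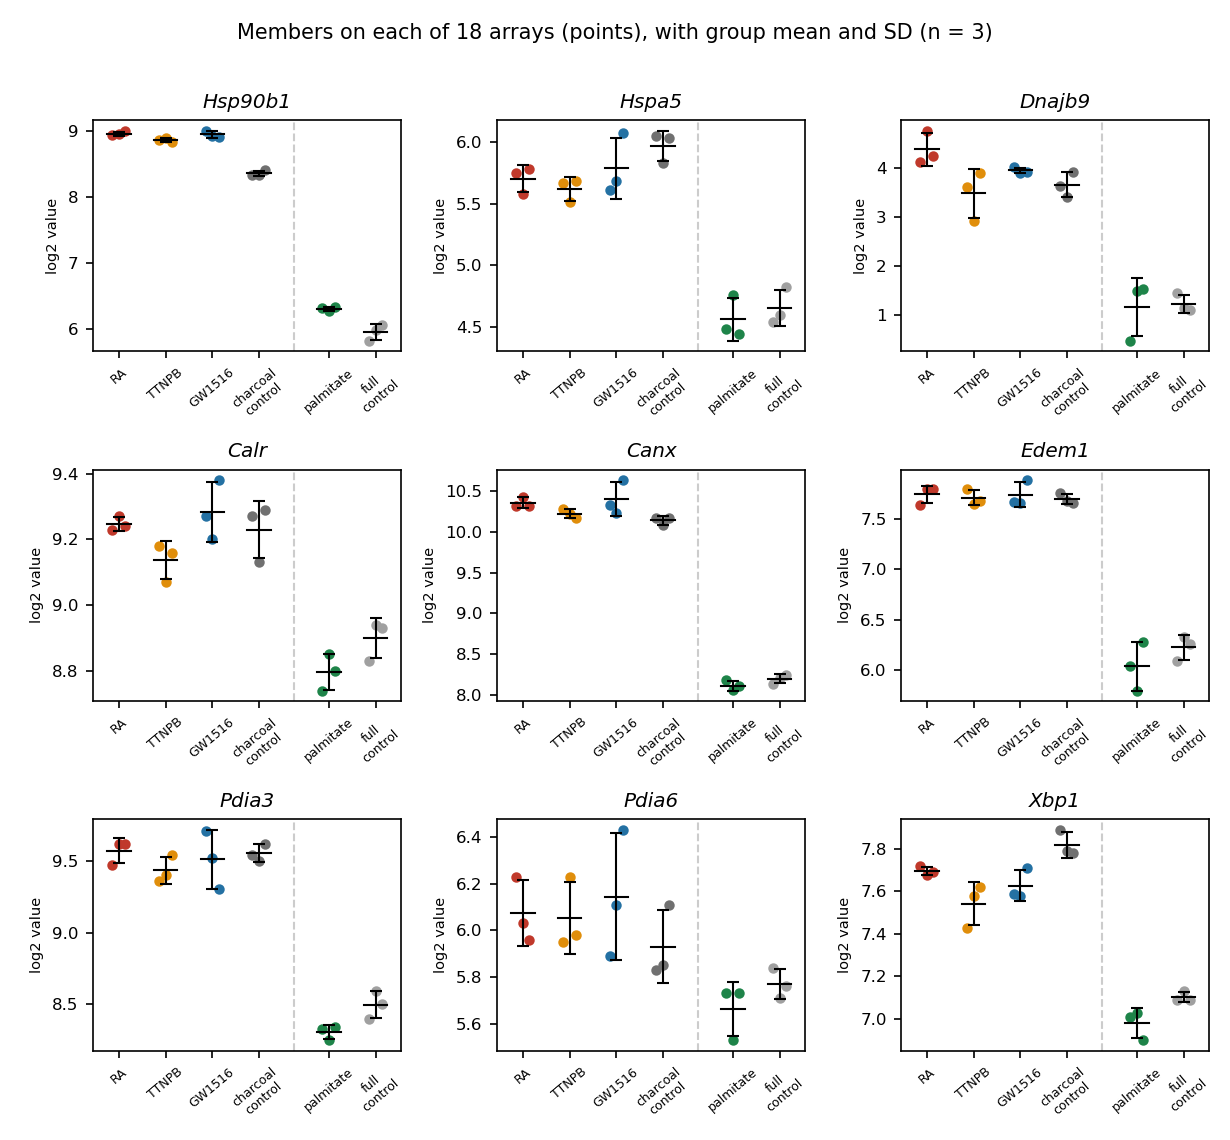
Log2 value (y axis) of each of the 9 measured genes on every array, by group (x axis), with the group mean and SD (n = 3); the dashed line parts the charcoal-serum from the full-medium arrays, whose levels are not comparable. Hsp90b1 lies at 8.84 to 9.01 on the ligand arrays and 8.34 to 8.41 in charcoal controls, while Hspa5 lies lower with retinoic acid and TTNPB than in controls.

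The 2 chaperone genes were also set against each other within each array, a comparison chosen after their values were seen. The log2 value of Hsp90b1 less that of Hspa5 averaged 3.27 ± 0.10 with retinoic acid, 3.25 ± 0.12 with TTNPB and 3.17 ± 0.28 with GW1516, against 2.39 ± 0.11 in charcoal controls (SD, n = 3 each). In full medium it averaged 1.75 ± 0.21 with palmitate and 1.30 ± 0.07 in controls. The lowest treated array was above the highest control in each comparison, 3.20, 3.16 and 2.86 for the ligands over 2.51, and 1.51 over 1.38 for palmitate. This separation is a description with no test, because the pair was chosen for it. Since probe sets differ in their response to signal, the ratio itself cannot be read here. For the same reason the sizes of the changes of these genes may not be on the same scale, which was not tested.

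**Figure D3:**
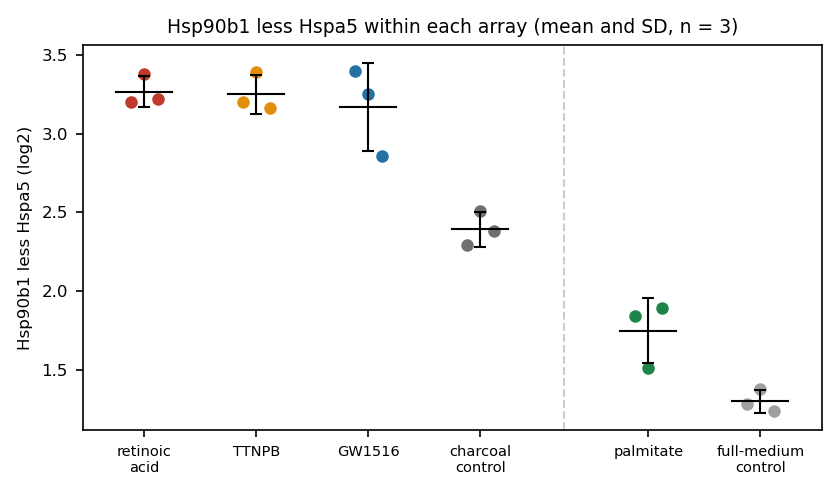
Log2 value of Hsp90b1 less that of Hspa5 on each array (y axis) by group (x axis), with mean and SD (n = 3); the dashed line parts the 2 sera. The ligand arrays lie at 2.86 to 3.4 and the charcoal controls at 2.29 to 2.51, and GW1516 replicate 3 is the lowest of the ligand arrays.

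Neither lectin chaperone was called in any treatment comparison. Calr, a soluble calcium-binding lectin, had log2 differences of 0.01 for retinoic acid, -0.10 for TTNPB, 0.05 for GW1516 and -0.10 for palmitate, and in each its interval stayed within 0.24 of 0. Canx, its membrane-bound counterpart, was 10.31, 10.43 and 10.32 with retinoic acid and 10.33, 10.23 and 10.63 with GW1516, against 10.17, 10.08 and 10.17 in charcoal controls, so both ligands' arrays lay above all controls. Its differences were 0.21 (0.04 to 0.38, adjusted p = 0.163, limma) and 0.26 (0.09 to 0.43, adjusted p = 0.107, limma), which missed the threshold. The retinoic acid difference passed in a fit of the 6 arrays alone (adjusted p = 0.00788) and with arrays weighted (0.0244), and without GW1516 replicate 2 the GW1516 difference did (0.34, adjusted p = 0.0286), whereas without GW1516 replicate 3 it was 0.14 (adjusted p = 0.189). For TTNPB and palmitate Canx had differences of 0.08 and -0.09.

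The disulfide isomerase genes Pdia3, which acts on glycoproteins with the lectins, and Pdia6 were not called anywhere. With palmitate Pdia3 was 8.33, 8.25 and 8.34, against 8.4, 8.59 and 8.50 in full-medium controls. The palmitate arrays lay below all controls (difference -0.19, -0.38 to -0.01, unadjusted p = 0.043, adjusted p = 0.665). In charcoal serum its differences were 0.02, -0.11 and -0.04 with retinoic acid, TTNPB and GW1516. Those of Pdia6 were 0.14, 0.12 and 0.22, and -0.10 with palmitate, each with an interval that contained 0. On GW1516 replicate 3 Pdia6 was 6.43 and Pdia3 9.30, the highest and lowest of their charcoal-serum arrays, and without that array their differences were 0.07 and 0.07.

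Dnajb9 (ERdj4), a J-domain partner of Hspa5 and in other cells a sensitive target of Xbp1, had the widest spread between replicates of the 9 genes in every group but GW1516. It was 4.12, 4.75 and 4.24 with retinoic acid, 3.61, 2.92 and 3.90 with TTNPB and 4.01, 3.90 and 3.92 with GW1516, against 3.62, 3.41 and 3.92 in charcoal controls. The retinoic acid arrays lay above all controls (1.65-fold, log2 difference 0.72, interval 0.16 to 1.28, adjusted p = 0.151), and the difference passed in a fit of these 6 arrays alone (adjusted p = 0.04). TTNPB gave -0.18 (-0.74 to 0.38), which turned to 0.10 without TTNPB replicate 2, and GW1516 0.30 (-0.26 to 0.86). In full medium it was 0.48, 1.49 and 1.53 with palmitate, against 1.45, 1.14 and 1.11 in controls. Those values are close to background, and palmitate replicate 1 was below it. The difference was -0.07, and 0.27 without that array.

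Xbp1, the transcription factor gene, was 7.72, 7.68 and 7.69 with retinoic acid, 7.43, 7.58 and 7.62 with TTNPB and 7.59, 7.58 and 7.71 with GW1516, against 7.89, 7.79 and 7.78 in charcoal controls. In full medium it was 7.01, 7.03 and 6.90 with palmitate and 7.09, 7.13 and 7.09 in controls. Every treated array was below every control of its serum, and no difference passed the test: -0.12 (adjusted p = 0.507), -0.27 (adjusted p = 0.107), -0.19 (adjusted p = 0.242) and -0.12 (adjusted p = 0.964), in the order retinoic acid, TTNPB, GW1516 and palmitate. The TTNPB difference passed when dim genes were left out (adjusted p = 0.049) or arrays were weighted (0.0242), and the GW1516 difference when arrays were weighted (0.0492). One value per gene does not show how much of the Xbp1 mRNA was spliced. Edem1, which sends misfolded glycoproteins to degradation, had differences of 0.04, 0.01, 0.04 and -0.19 in the same order, each with an interval that contained 0.

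**Figure D4:**
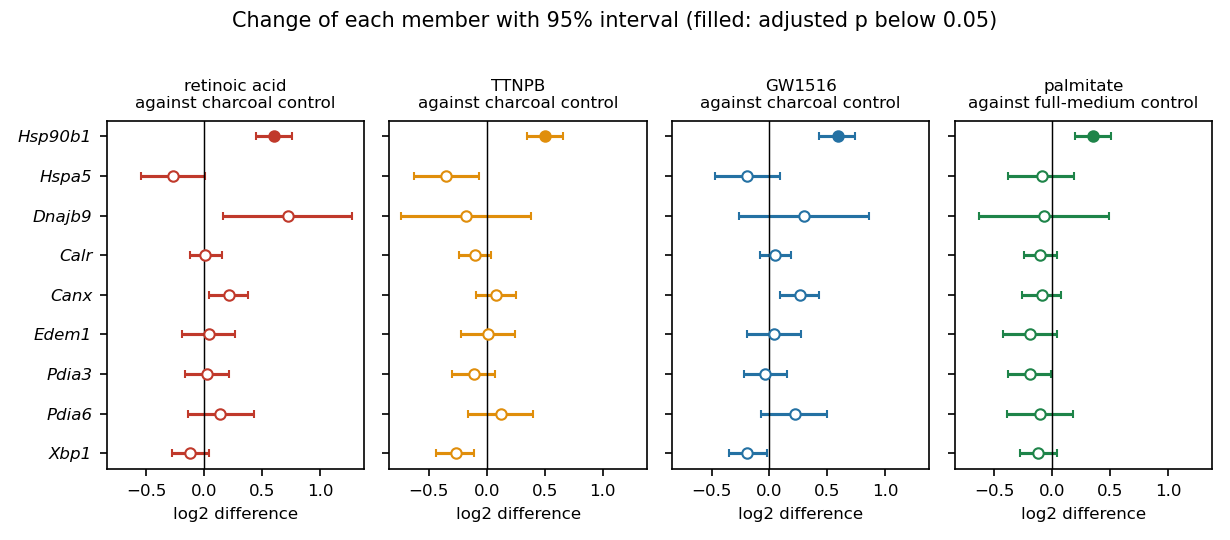
Log2 difference from the matching control (x axis) with its 95% interval for the 9 measured genes (rows) in the 4 treatment comparisons (panels); filled points passed the test. Hsp90b1 lies to the right of 0 in all 4 panels and is the only filled point in each, while Hspa5 and Xbp1 lie to the left of 0.

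Counted together, 1 of 9 genes was called in each comparison, always Hsp90b1 and always higher. Of all genes 5.29% were called for retinoic acid (3.82% higher), 1.26% for TTNPB (0.618% higher), 2.57% for GW1516 (1.89% higher) and 0.681% for palmitate (0.144% higher). A single call among 9 genes says nothing of the list as a whole. The median log2 difference of the 9 was 0.04 for retinoic acid, -0.10 for TTNPB, 0.05 for GW1516 and -0.10 for palmitate, beside -0.03, 0.00, -0.01 and 0.00 over all genes. Retinoic acid arrays did not overlap with controls for 5 of 9 genes, beside 24.1% of all genes, with 3 above (all genes 12.9%) and 2 below (11.2%). For TTNPB there were 3 (17.9%), with 1 above (8.83%) and 2 below (9.11%). For GW1516 there were 3 (16.3%), with 2 above (8.25%) and 1 below (8.03%), and for palmitate 3 (15.2%), with 1 above (6.46%) and 2 below (8.76%).

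At the same dose and time the 3 ligands were also compared with each other, and none of the 9 genes differed past the test in any of the 3 pairs, where 0.153% of all genes differed between retinoic acid and TTNPB, 0.352% between retinoic acid and GW1516 and 0.0676% between TTNPB and GW1516. At an unadjusted p below 0.05 there were 1, 0 and 2 of the 9 (limma), beside 7.27%, 9.3% and 10.5% of all genes. All 9 differences were positive for retinoic acid against TTNPB (median 0.11, all genes -0.01). All 9 were negative for TTNPB against GW1516 (median -0.09, all genes 0.00). Both pairs use the same TTNPB arrays, and the 9 genes share arrays, so these signs are not separate observations. Retinoic acid and TTNPB, in which aromatic rings replace much of the polyene chain, differed by 0.10 for Hsp90b1 (95% interval -0.05 to 0.25) and by 0.08 for Hspa5 (-0.20 to 0.37). The gene with the largest difference was Dnajb9, at 1.86-fold over TTNPB (0.90 on the log2 scale, 0.34 to 1.46, unadjusted p = 0.00348, adjusted p = 0.318), and it was 1 of 5 genes whose retinoic acid arrays all lay above the TTNPB arrays, beside 9.64% of all genes. TTNPB and GW1516 differed by -0.08 (-0.24 to 0.07) for Hsp90b1, and retinoic acid and GW1516 by 0.02 (-0.14 to 0.17).

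The palmitate effect in full medium was set against each ligand effect in charcoal serum, although dose, serum and the distribution of values differ. No member differed past the test, where 2.56%, 0.568% and 1.26% of all genes did against retinoic acid, TTNPB and GW1516. At an unadjusted p below 0.05 there were 2, 0 and 2 of the 9 (limma), beside 12.6%, 8.16% and 11% of all genes. The palmitate effect on Hsp90b1 less that of retinoic acid was -0.25 (interval -0.47 to -0.03, unadjusted p = 0.0259, adjusted p = 0.283), less that of TTNPB -0.15 (-0.37 to 0.07) and less that of GW1516 -0.23 (-0.45 to -0.02, adjusted p = 0.394). For Canx the same differences were -0.30 against retinoic acid (adjusted p = 0.23, but 0.0272 on the groups of the comparison alone) and -0.34 against GW1516 (adjusted p = 0.194).

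Other genes of the pathway were taken from 5 lists, and their counts stand beside 3.82%, 0.618%, 1.89% and 0.144% of all genes called higher with retinoic acid, TTNPB, GW1516 and palmitate (5.29%, 1.26%, 2.57% and 0.681% in either direction). Of 18 measured of 19 other ER chaperones and folding enzymes, 2 rose and none fell with retinoic acid, 1 rose with TTNPB, 1 rose with GW1516 and 1 fell with palmitate. Ero1a, the oxidase that recharges the disulfide isomerases, rose with all 3 ligands. It was 9.42, 9.48 and 9.37 with retinoic acid, 9.38, 9.29 and 9.34 with TTNPB and 9.55, 9.55 and 9.49 with GW1516, against 8.48, 8.49 and 8.63 in charcoal controls, again without overlap. Its log2 differences were 0.89 ± 0.07 (SE, adjusted p = 4.04e-07, limma), 0.80 (adjusted p = 4.23e-06, limma) and 0.99 (adjusted p = 4.9e-07, limma). With the mean of its 2 probe sets the TTNPB difference was 0.57 (adjusted p = 0.0767). In full medium Ero1a was 7.14, 7.02 and 6.95 with palmitate and 7.18, 7.18 and 7.13 in controls. Dnajc3 (P58IPK), an Hspa5 partner whose promoter window also holds the ERSE letters, rose with retinoic acid (0.75, adjusted p = 0.0172) but not without retinoic acid replicate 1, 2 or 3 or control replicate 2 (adjusted p up to 0.106). Uggt1, the glucosyltransferase that returns misfolded glycoproteins to the lectin cycle, fell with palmitate, to 6.56, 6.58 and 6.55, against 7.04, 7.08 and 7.19 in controls (log2 difference -0.54, adjusted p = 0.00325, but 0.0772 on the 6 arrays alone). The standard unfolded protein response targets Hyou1, Sdf2l1, Manf and Creld2, chosen for naming after their values were seen, were not called with any treatment. Their differences ran from -0.29 (Sdf2l1 with TTNPB and GW1516) to 0.11 (Sdf2l1 with palmitate). Manf lay nearest to background, with group means of 2.24 to 2.36 in charcoal serum and 1.56 to 1.59 in full medium, so a change in it could be missed. Some genes of the sensor and degradation lists, described below, went further from 0 with palmitate than these targets did with palmitate, also without a call. They went both ways and were chosen for naming after their values were seen. Trib3 had 0.69, Ppp1r15a 0.42 and Herpud1 0.25. Sel1l had -0.55, Mbtps1 -0.31, Eif2ak3 -0.30, Mbtps2 -0.29, Vcp -0.29 and Atf4 -0.28. Others stayed near 0, such as Ern1 (0.01) and Os9 (0.03).

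Of 12 sensors and regulators, 5 rose with retinoic acid, 1 with TTNPB, 2 with GW1516 and none with palmitate, and none fell, beside the same 3.82%, 0.618%, 1.89% and 0.144% of all genes called higher. Ddit3 (CHOP), the transcription factor gene of the PERK branch, was 4.83, 5.05 and 4.96 with retinoic acid, 4.97, 4.89 and 5.09 with TTNPB and 4.88, 4.94 and 5.05 with GW1516, against 3.99, 3.58 and 4.02 in charcoal controls. These are rises of 1.08, 1.12 and 1.09 on the log2 scale (adjusted p = 0.000257, 0.000677 and 0.000984, limma, the last 0.197 on its 6 arrays alone). With palmitate Ddit3 had 0.25 (adjusted p = 0.918), and Atf4, its upstream factor, had -0.17, -0.20 and -0.03 with the ligands (none called). The rise of Ddit3 was not shared by the rest of this branch in the list. In the same order Trib3 had 0.20, 0.24 and 0.20, and Ppp1r15a -0.01, -0.05 and 0.40. Eif2ak3 had 0.48, 0.21 and -0.05, and none of these was called. Ern1 rose with retinoic acid (0.57, adjusted p = 0.0229) and GW1516 (0.54, adjusted p = 0.0497), and Atf6 (0.48, adjusted p = 0.0125) and Mbtps2, the protease that releases it (0.65, adjusted p = 0.036), rose with retinoic acid. Each of these 4 rises, 2 of Ern1 and 1 each of Atf6 and Mbtps2, was lost on leaving out 3 to 5 single arrays in turn, charcoal control replicate 2 among them every time, with adjusted p up to 0.154 for retinoic acid and 0.217 for GW1516. The fifth call with retinoic acid was Mbtps1, the partner protease (0.27, adjusted p = 0.0375), named after its value was seen.

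Among 15 genes of ER import and N-glycosylation 2 rose with retinoic acid and 2 with GW1516, and none with TTNPB or palmitate. They were Sec62, a translocon subunit gene, with 0.96 (adjusted p = 0.000651) and 0.60 (adjusted p = 0.0378), and Ssr3 with 0.41 (adjusted p = 0.0304) and 0.49 (adjusted p = 0.0202). All but the first of these calls were lost without charcoal control replicate 1 or 2, as were Ssr3 without retinoic acid replicate 1 or 2 and Sec62 without GW1516 replicate 1 or 2. Of 13 measured of 14 genes of ER-associated degradation 1 was called, Derl1, which fell by 0.46 with GW1516 (adjusted p = 0.016), but not without charcoal control replicate 1. Of 15 measured of 17 cytosolic and mitochondrial chaperone genes 1 rose and 2 fell with retinoic acid, and 1 fell with GW1516. Hsph1, an Hsp110 gene, fell by 1.05 with retinoic acid (adjusted p = 0.0106, and 0.0611 without retinoic acid replicate 1). The constitutive Hsp70 gene Hspa8 fell by 0.48 with retinoic acid (adjusted p = 0.0237) and by 0.53 with GW1516 (adjusted p = 0.025), but not without control replicate 3 in either. It lost its call also without any single retinoic acid array, or, for GW1516, without control replicate 1 or 2. Without GW1516 replicate 3 the Hspa8 difference with GW1516 was -0.33, still past the test. The mitochondrial Hspa9 rose by 0.27 with retinoic acid (adjusted p = 0.027), a call that did not survive the loss of any single array. The median difference of each of these 5 lists stayed between -0.11 and 0.25 with the ligands and between -0.09 and 0.00 with palmitate.

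**Figure D5:**
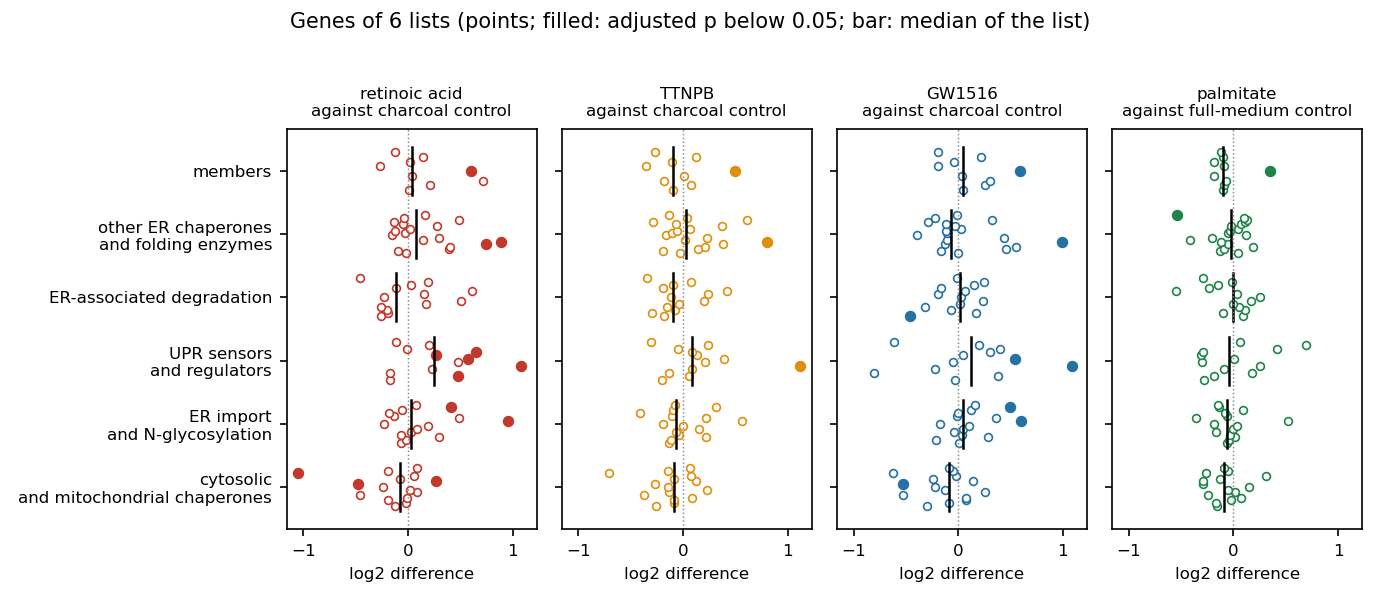
Log2 difference from the matching control (x axis) of the genes of 6 lists (rows, points are genes, bars are list medians) in the 4 treatment comparisons (panels); filled points passed the test. In the member list the filled point is Hsp90b1, and the filled points farthest to the right with TTNPB and GW1516 are Ddit3 and Ero1a.

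The genes with the ERSE letters were gathered after values were seen and are given as a description. Of 27 measured genes with a match, 2 rose with retinoic acid (Hsp90b1 and Dnajc3), 1 with TTNPB (Hsp90b1), 2 with GW1516 (Hsp90b1 and the RNA-binding protein gene Hnrnpa3, named after its value was seen, 0.72, adjusted p = 0.0486) and 1 with palmitate (Hsp90b1), and none fell, where 3.82%, 0.618%, 1.89% and 0.144% of all genes rose. Their median log2 difference was -0.01, 0.02, 0.00 and -0.05, beside -0.03, 0.00, -0.01 and 0.00 over all genes.

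Hsp90b1 had the largest root mean square log2 change of the 9 over the 4 comparisons (0.52, against 0.40 for Dnajb9 and 0.25 for Hspa5). The 5 genes whose differences were closest to its own, among 11089 genes of above-median level, were Klrg2, Nampt, Mir761, Mkln1 and Terf1, at a root mean square distance of 0.0578, 0.0708, 0.0825, 0.0836 and 0.0841. This filter on level was not set against background, so a gene that passed it may still lie near background. Of these, Mkln1 (0.68, adjusted p = 0.0347) and Terf1 (0.58, adjusted p = 0.022) were called, with retinoic acid, and no other of the 5 was called in any of the 4 comparisons.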

How the data were processed

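RNA of 18 samples was measured on 1 array each, and the authors deposited log2 values for 41345 probe sets. The scale was read from the values, which run from -0.54 to 13.25. The submitters' processing notes name Partek, and its version and the background correction, normalization and summary are not given in the sources used here. Of the probe sets, 23521 had 1 gene symbol, 1814 several and 16010 none, and the last 2 kinds were left out. The Entrez number of 23328 probe sets was found in RefSeq (GRCm38.p6), and these took the RefSeq symbol, whether or not it differed. The probe set with the highest mean stood for a gene. Dim genes stayed in the tests, and the number of arrays limits the precision.

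Group means were fitted with limma 3.58.1 in R 4.3.3, with a variance trend (threshold: adjusted p below 0.05). All members, and up to 4 called genes of each list with the largest change per comparison, were named by rule, as were the 5 genes nearest in pattern. The members and lists were chosen with earlier results of these data known. The code was tested on simulated data. Positions and promoter sequences are RefSeq's for GRCm38.p6 (all 10 genes matched).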

Additional observations from a re-analysis of the deposited data

How the results depend on the processing

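The other settings were each array left out in turn, and 11 further choices of arrays in the fit, variance prior, replicate block, scaling, array weights, filter and probe sets. No member's difference changed sign in a call. The count of members called with retinoic acid was 1, but 2 with array weights and 3 (Hsp90b1, Canx and Dnajb9) on the groups of the comparison alone. With TTNPB it was 1, but 2 with array weights and 2 with dim genes left out (Xbp1 lower in both). With GW1516 it was 1, but 2 with array weights (Xbp1 lower) and 0 on the groups of the comparison alone. With palmitate it was 1, but 0 with arrays centred on their medians, on the arrays of one serum, on the groups of the comparison alone, with every probe set tested, and with the replicate block. Without single arrays the counts were 1 to 1, 1 to 1, 1 to 2 and 0 to 1 in the same order. Palmitate and retinoic acid effects differed for 0 members, but for 1 (Canx, lower) with array weights and 1 (Canx, lower) on the groups of the comparison alone. The replicate numbers were not taken as pairs, since over 12 same-numbered pairs the correlation of deviations from the group mean ran from -0.23 to 0.21 and only 2 exceeded 0.1. With the replicate block Hsp90b1 had adjusted p = 0.0505 with palmitate, no other call of a member changed, and the counts over all genes were lower in all 4 comparisons. The fit on the arrays of one serum gives no value for a palmitate effect less a ligand effect. The cause of these shifts was not tested. Over all genes, 1174 genes were called with retinoic acid (583 to 932 without single arrays, 805 to 2014 under other settings), 279 with TTNPB (112 to 170, and 101 to 622), 570 with GW1516 (198 to 711, and 3 to 1122) and 151 with palmitate (62 to 141, and 1 to 661).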
